A study of Bos taurus with 54 samples.

Results

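The transcripts of the mitochondrial genome were described in whole blood RNA of Holstein calves. The members are all genes of the count tables whose ID starts with KEH36_, the locus tags of the mitochondrial rRNA and tRNA genes, together with the 13 mitochondrial protein-coding genes. These gave 37 members, namely 13 mRNA, 2 rRNA and 22 tRNA genes, of 32637 genes listed. They span positions MT:364-15791 of the mitochondrial chromosome in ARS-UCD2.0. Blood of 15 male calves, which differ in no stated allele or agent and whose age the labels do not give, was drawn at 6:30 in thermoneutral rooms (thermoneutral control) and, from the same calves, at 18:30 on leaving 12 h of heat (heat stress). No calf was sampled at 18:30 without heat, so heat and time of day cannot be told apart in any comparison of the times. Red blood cells were lysed before RNA was isolated from the cell pellet. The RNA was made into 54 libraries, 27 with the SMART-Seq v4 3′ DE kit, called Takara after its maker, and 27 with the QuantSeq 3′ kit of Lexogen, 2 kits that prime with oligo(dT) and read the 3′ ends of polyadenylated RNA. In each kit 13 libraries are thermoneutral controls and 13 are heat stress libraries, with 12 calves present at both times. Animal 20 has 1 library per kit whose time is given differently in the sources, and of the main comparisons it entered that of the kits only.

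The mitochondrial genome is a small circular DNA present in many copies per cell. Both of its strands are transcribed as long RNAs that run through most of the genome, and the tRNAs, which lie between the other genes, are cut out to free the rRNAs and mRNAs. The mRNAs encode subunits of the respiratory chain and of ATP synthase, and they carry short poly(A) tails that oligo(dT) can prime on. Most mRNAs are read from the heavy strand, while ND6 lies on the light strand, opposite the other mRNAs. The 2 rRNAs form the mitochondrial ribosome. Blood cells differ in how many mitochondria they hold, and mature neutrophils are known for few.

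Counts on genes ranged from 5140595 to 20699030 per Takara library and from 4516761 to 58521751 per Lexogen library. The highest total was that of animal 15 after heat stress. Log2 fold changes between the times had standard errors with a median of 0.18 in Takara and 0.42 in Lexogen. Of 58 marker genes listed for neutrophils, T cells, B cells, monocytes, platelets and erythroid cells, 54 were in the count tables and 1 of these had no count in any library. The sample numbers in the labels fall into 2 runs, run 1 with 29 libraries of 8 calves and run 2 with 25 libraries of 7 calves. What separates the runs is not stated, and the comparisons of the times were also made within each run. Within each run the control samples hold an earlier stretch of numbers and the heat stress samples a separate, later stretch. A time effect within a run, or its difference between the runs, therefore cannot be told apart from a difference between these stretches.

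The same RNA gave a much larger mitochondrial share with Lexogen than with Takara. Mitochondrial genes took 4.19% ± 1.20 (SD, n = 27) of the counts on genes in Takara, from 2.51% to 6.60%, and 19.1% ± 4.61 (SD, n = 27) in Lexogen, from 10.4% to 27.8%. The ranges of the kits did not overlap. In the 25 RNA samples that have libraries of both kits, the Lexogen share was the higher in 25, by a median factor of 4.51 with a range of 2.97 to 7.16. Sums over members are described without a test.

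The rRNAs made up most of this difference. Together 12S (MT:431-1385) and 16S (MT:1453-3023) took 2.66% ± 0.959 of counts in Takara and 16.5% ± 4.44 in Lexogen (SD, n = 27 each). The mRNAs took 1.52% ± 0.405 and 2.54% ± 0.678, with overlapping ranges, and Lexogen was the higher in 24 of 25 RNA samples by a median factor of 1.61. The tRNA genes took 0.00835% and 0.0673%. By mean count, 16S ranked 4th of all genes in Takara and 2nd in Lexogen, and it was the most counted gene of the library in 4 of 27 Takara and 13 of 27 Lexogen libraries. 12S ranked 7th and 3rd.

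**Figure D1:**
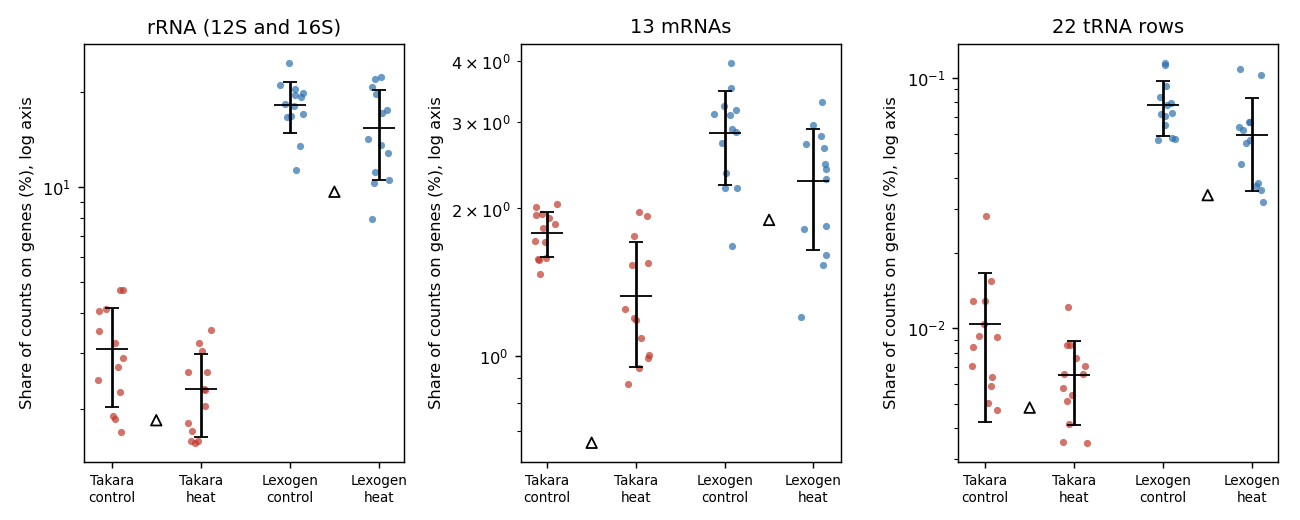
Share of counts on genes (percent) on a log axis, taken by mitochondrial rRNA, mRNA and tRNA genes, 1 point per library by kit and time, with bars for the mean and SD of 13 libraries and triangles for animal 20. Shares of all members lie between 2.51% and 6.60% in Takara and between 10.4% and 27.8% in Lexogen, and rRNA makes up most of the gap.

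Gene by gene, in the unstranded counts, Lexogen gave more of most mitochondrial transcripts. COX3, a subunit of cytochrome c oxidase, was higher in Takara, and the direction of COX1 depended on the setting. A model with the RNA sample as a block was fitted across 12402 genes with edgeR's quasi-likelihood test. Of the 25 members it tested, 24 were lower and 1 was higher in Takara at an adjusted p under 0.05, beside 72.3% of all genes tested that passed in either direction (40.5% higher and 31.8% lower in Takara). With the total count as library size 2 members were higher and 23 lower, and over all genes 5023 higher and 3948 lower became 6520 and 2712. The median log2 difference, Takara minus Lexogen, was -2.75 over the members and 0.22 over all genes tested. For 12S, 16S, ATP8, ND3, ND4L and KEH36_t09 the ranges of the kits in CPM (counts per 1000000 counts on genes) did not overlap, beside 5.68% of all genes tested (1.34% with the higher range in Lexogen).

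16S had 8521, 12669 and 30113 CPM (lowest, median and highest of 27 libraries) in Takara and 53946, 123191 and 201527 in Lexogen. 12S had 5874, 11704 and 18235 in Takara and 25421, 45727 and 63539 in Lexogen. Every Lexogen library exceeded every Takara library for both rRNAs. The log2 difference was -3.38 (SE 0.11) for 16S and -2.52 (SE 0.08) for 12S, with adjusted p of 2.01e-22 and 1.44e-22 (edgeR's quasi-likelihood test, Benjamini-Hochberg).

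ATP8 and ATP6 encode subunits of ATP synthase and overlap by 40 bp (MT:8129-8329 and MT:8290-8970), so that reads in the shared stretch count for neither gene. ATP8 had 2.37, 17.4 and 185 CPM in Takara and 708, 1726 and 3347 in Lexogen. ATP6 had 665, 1090 and 1647 in Takara and 1389, 5329 and 8390 in Lexogen. ATP8 stood clear of overlap by a wide gap, while the lowest Lexogen library for ATP6 lay inside the Takara range. The log2 differences were -7.00 (SE 0.32) for ATP8 and -2.75 (SE 0.09) for ATP6.

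COX3 went the other way. It (MT:8970-9750) lies next to ATP6 and had 1461, 6191 and 9263 CPM in Takara and 1144, 1982 and 4469 in Lexogen. The ranges overlapped, and Takara was the higher in 24 of 25 RNA samples, with a log2 difference of 0.89 (SE 0.13) and an adjusted p of 5.13e-07 (edgeR's quasi-likelihood test). COX3 alone took 40.3% of the mitochondrial mRNA counts in Takara and 9.47% in Lexogen. The share of ATP6 was 7.24% in Takara and 20.5% in Lexogen. COX1 and COX2, the other mitochondrial subunits of cytochrome c oxidase, took 14.5% and 11.3% of mRNA counts in Takara and 7.15% and 9.97% in Lexogen. These shares are of unstranded counts. In mean sense levels COX1 made up 22.4% of the mRNAs in Takara and 8.89% in Lexogen.

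COX1 (MT:5687-7231) did not have a direction that held. Its log2 difference was -0.20 (SE 0.09, adjusted p = 0.0441, edgeR's quasi-likelihood test), yet its CPM was higher in Takara in 18 of 25 RNA samples. With the total count as library size the difference was 0.28, with sense counts 0.19 and with DESeq2 0.12. COX2 (MT:7374-8057) was lower in Takara by 1.05 on the log2 scale (SE 0.06).

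The members of complex I, the NADH dehydrogenase, were all lower in Takara, to very different degrees. ND3 (MT:9823-10168) had 232, 428 and 993 CPM in Takara and 1615, 3207 and 6133 in Lexogen, with no overlap and a log2 difference of -3.24 (SE 0.11). ND4L (MT:10239-10535) had 0.810, 2.78 and 11.0 in Takara and 29.1, 68.2 and 120 in Lexogen, again apart, with a difference of -4.84 (SE 0.22). It shares 7 bp with ND4, with which it is known to form a common mRNA. The differences were -2.36 for ND2, -2.33 for ND4, -1.84 for ND1, -1.34 for ND6 and -1.27 for ND5. Each of these 5 had overlapping ranges. CYTB (MT:14514-15653), the mitochondrial subunit of complex III, differed by -1.18 (SE 0.06).

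Per kb of gene, in sense CPM, the order of the mRNAs differed between the kits. COX3 led in Takara with 7944 per kb and stood above COX2, with 2526, in 27 of 27 libraries. COX1 followed with 2368, which COX2 exceeded in 18 of 27 libraries, and then ATP6 with 1580, ND3 with 1346 and CYTB with 1268. Not divided by length, the mean sense CPM was 3658 for COX1 and 1728 for COX2, the reverse order. ND3 exceeded CYTB in 16 of 27 libraries, so their order was not settled. In Lexogen ND3 led with 9229 per kb, followed by ATP8 with 8613 and ATP6 with 7683. ND3 exceeded ATP8 in 15 of 27 libraries and ATP8 exceeded ATP6 in 18 of 27, while ATP6 stood above COX2, with 3705, in 27 of 27. COX3 came next with 2971. At the low end the levels per kb were 10.8 for ND4L and 7.81 for ND6 in Takara and 226 and 70.6 in Lexogen. Neighbours in the order per kb had ranges apart only for ND5 above ND4L in Takara and for ND4 above ND4L in Lexogen. The order rests on the division by gene length, which per the study 3′ mRNA-Seq does not require. In mean sense CPM without it, COX3 still led in Takara with 6204. In Lexogen ATP6 led with 5232, followed by ND3 with 3193 and COX2 with 2534, and ATP8 had 1731.

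**Figure D2:**
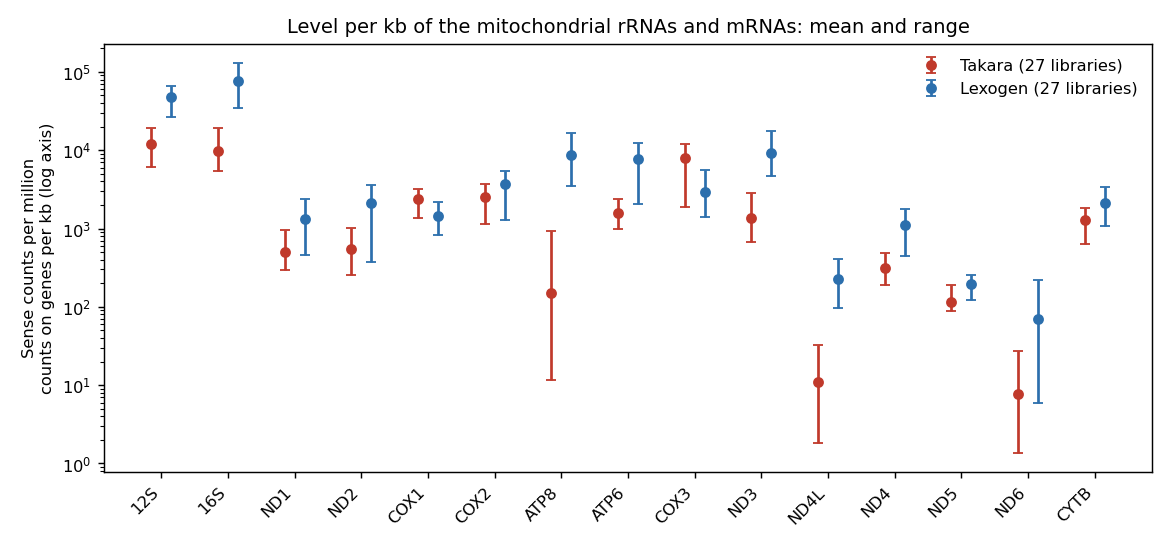
Sense CPM per kb (log axis) of the mitochondrial rRNAs and mRNAs in genome order, with the mean as a point and the range over 27 libraries as a bar for each kit. COX3 is the highest mRNA in Takara with 7944 per kb, and ND3, ATP8 and ATP6 are the highest per kb in Lexogen. Not divided by length, ATP6 is the highest in Lexogen with a mean of 5232 sense CPM, and ATP8 has 1731.

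Most of the 22 tRNA genes had low counts in the unstranded column of either kit. KEH36_t22 was an exception in Lexogen, where it ranked 190th of 32637 genes by mean count. The count tables give them as KEH36_t01 to KEH36_t22 in genome order, and their amino acids were not used here. By mean level in the unstranded column the leading tRNA genes were KEH36_t22 (MT:15726-15791) with 67.7 CPM, KEH36_t12 (MT:7229-7299) with 8.94 and KEH36_t05 (MT:4123-4194) with 1.54 in Takara. In Lexogen they were KEH36_t22 with 528, KEH36_t09 (MT:5446-5518) with 76.3 and KEH36_t12 with 14.5. The strand changes this order. In sense counts KEH36_t04 with 6.83 CPM, KEH36_t21 with 5.70 and KEH36_t13 with 5.66 led in Takara, where KEH36_t22 had 0.412, and KEH36_t13 with 78.5 and KEH36_t09 with 75.9 led in Lexogen. All 10 tRNA genes that entered the comparison of the kits were lower in Takara, from -1.20 for KEH36_t12 to -8.50 for KEH36_t09 on the log2 scale. For some tRNA genes this direction rests on the column. The opposite-strand level of KEH36_t12 was 1955 CPM in Takara and 1011 in Lexogen and that of KEH36_t05 40.5 and 24.3, and the sense level of KEH36_t04 was 6.83 and 0.258. KEH36_t04 (MT:4057-4125), which overlaps KEH36_t05 by 3 bp, had 0 unstranded counts in all 54 libraries, and this 0 sets no limit on its level, because all of its stranded counts (100%) are missing from the unstranded column. It had 1775 sense counts over the Takara libraries, a sense level of 6.83 CPM with a range of 0.676 to 21.6, and 8201 counts on the opposite strand over the Lexogen libraries.

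The count tables give each gene an unstranded, a sense and an opposite-strand count, so the strand of the mitochondrial reads could be read directly. The sense column counts reads on the strand of the gene, and a read that overlaps 2 genes on the strands considered is counted for neither. rRNA reads lay almost wholly on the sense strand, with 0.0968% on the opposite strand in Takara and 0.0271% in Lexogen. For mRNA genes other than ND6 the opposite share was 0.509% and 1.56%, below the 5.10% and 6.59% of genes outside the mitochondrial genome. For the tRNA genes together it was 98.8% in Takara and 86.4% in Lexogen, but KEH36_t12 and KEH36_t22 held 97.9% and 93.6% of the opposite counts, and single tRNA genes lay on either side. Of 7 tRNA genes with at least 10 stranded counts in 20 or more Takara libraries, 3 had a mean opposite share under 5%, and of 15 such genes in Lexogen 7 did. KEH36_t13, for example, had 0.646% in Takara and 0.210% in Lexogen, and KEH36_t09 had 0.540% in Lexogen.

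ND6 (MT:13913-14440), which overlaps ND5 (MT:12109-13929) by 17 bp, was counted almost only on the strand opposite to it. It had 1122 sense and 116024 opposite counts in Takara and 11038 and 198810 in Lexogen, or 99.0% and 95.2% opposite on average over libraries. The lowest share in any library was 96.8% in Takara and 85.8% in Lexogen. The unstranded level of ND6 used in the other comparisons therefore counts nearly only reads of the opposite strand, the strand known to carry the ND5 mRNA. KEH36_t12, which overlaps the end of COX1 by 3 bp, had an opposite share of 99.9% in Takara and 99.1% in Lexogen, with 564078 and 303664 opposite counts.

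For some members the unstranded column held fewer counts than the stranded columns together. COX1 had an unstranded count of 59.7% ± 8.74 (SD, n = 27) of its sense count in Takara, from 45.2% to 81.6%, and of 79.3% ± 7.91 in Lexogen. The stranded counts missing from the unstranded column of COX1 came to 434741 in Takara and 153231 in Lexogen, equal to 77.1% and 50.5% of the opposite-strand counts of KEH36_t12. ND5 missed 13.2% of its stranded counts in Takara and 20.5% in Lexogen. KEH36_t13, which overlaps no gene model and lies next to KEH36_t12, missed 85.0% of its stranded counts in Takara and 95.9% in Lexogen. Set against the stranded columns, the unstranded level of COX1 was the most reduced in Takara (59.4% kept) and Lexogen (77.1%) among the mRNAs. Reads in stretches shared by genes of the same strand are in none of the columns, and their number was not measured.

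The opposite share itself differed between the kits for 13 of the 21 members tested, beside 39.9% of 5349 genes tested (7.8% higher and 32.1% lower in Lexogen). The test was a permutation test by sign changes of the 25 paired differences, two-sided, with 100000 resamples. As in the edgeR model of the kits, each RNA sample was a unit of its own, though most calves gave a sample at each time. ND5 had an opposite share of 4.92% ± 2.16 in Takara and 16.7% ± 5.39 in Lexogen (SD, n = 25 RNA samples each), and Lexogen was the higher in 25 of 25. COX3 had 0.0977% and 2.59%, with Lexogen again the higher in 25 of 25. ND3 had 1.04% and 0.191%, with Lexogen the lower in 25 of 25. The adjusted p was 5.83e-05 for each of these 3 genes in this permutation test, from an unadjusted p of 1e-05, the smallest that the resamples can give.

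The widest differences in strand were those of tRNA genes. KEH36_t04 went from 0.786% opposite in Takara to 97.7% in Lexogen, and KEH36_t21 (MT:15658-15726), next to KEH36_t22, from 4.18% to 63.3%. KEH36_t05 went from 99.1% to 56.6%. The other members that passed moved by smaller amounts: COX1, COX2 and CYTB were higher, and 16S, ATP8, ND6 and KEH36_t22 lower, in Lexogen. Between the times 0 members passed the permutation test in either kit. Over all genes 0 of 10427 passed in Takara and 0 of 5368 in Lexogen (0.0% each), with 1140 and 189 at an unadjusted p under 0.05. The test by count models was not run on strand shares.

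**Figure D3:**
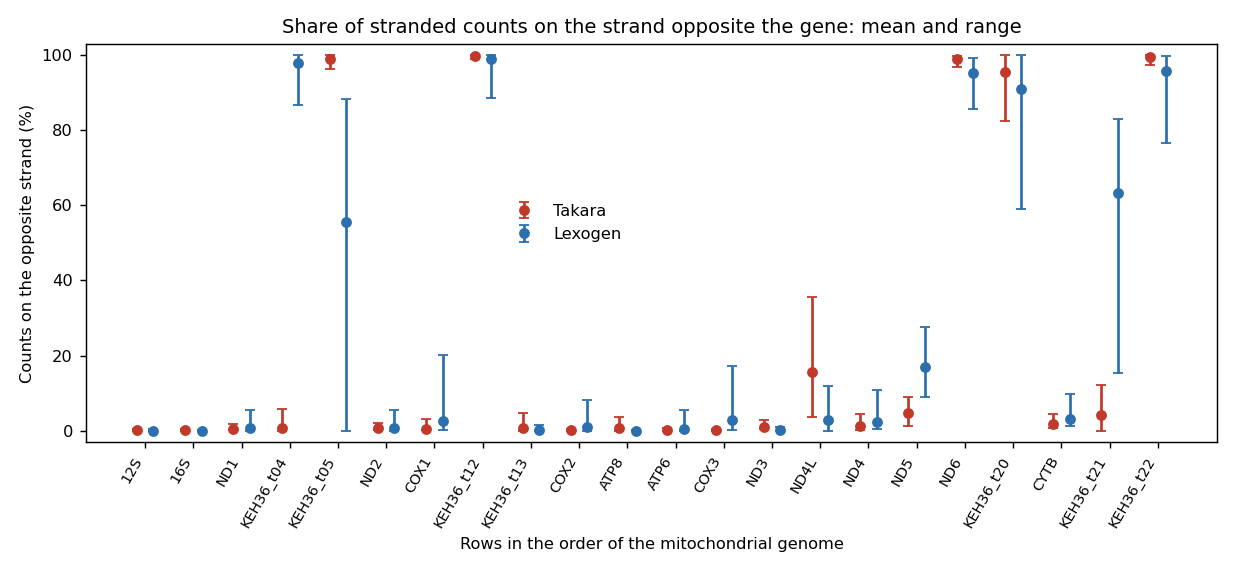
Share of stranded counts on the strand opposite to the gene (percent), per mitochondrial gene and kit, with the mean as a point and the range as a bar over libraries with at least 10 stranded counts. Genes with fewer than 20 such libraries in either kit are left out. ND6 and KEH36_t12 have means above 95% in both kits, and KEH36_t04, KEH36_t05 and KEH36_t21 differ most between the kits.

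The comparison of the times asks which transcripts differ after 12 h of heat. In Takara 3 of 17 members tested fell, all mRNAs, and none rose, beside 28.9% of all genes that passed, and with the animal as a block 1 remained. In Lexogen no member passed the test, beside 5.55% of all genes. In TMM-normalised CPM, COX2 had 1566, 1890 and 2516 in the control libraries and 1094, 1400 and 2246 after heat stress (lowest, median and highest of 13). The ranges overlapped, 7 of 13 heat stress libraries lay below every control, and 11 of 12 calves were lower after heat stress. COX2 fell by 0.34 on the log2 scale (SE 0.12, adjusted p = 0.0280, edgeR's quasi-likelihood test, adjusted by Benjamini-Hochberg). Fewer cells of a type and less RNA per cell cannot be told apart in these bulk samples, here or in any result that follows.

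CYTB had 1186, 1625 and 2068 in the control libraries and 914, 1255 and 1786 after heat stress in Takara, lower in 9 of 12 calves. It fell by 0.32 (SE 0.12, adjusted p = 0.0470 by edgeR). ATP8 had 6.25, 15.2 and 190 in the control libraries and 3.26, 9.64 and 38.4 after heat stress, with overlap over most of the range and lower values in 8 of 12 calves. It fell by 1.53 (SE 0.55, adjusted p = 0.0373 by edgeR). These 3 are the members called of 17 tested, beside 28.9% of 12620 genes tested (18.4% up and 10.5% down). With the animal as a block only COX2 passed (adjusted p = 0.0421 by edgeR), since CYTB had -0.34 with an adjusted p of 0.0541 and ATP8 -0.96 in place of -1.53 with one of 0.222. With no filter on low counts COX2 lost its call (adjusted p = 0.0617 by edgeR), as did CYTB (0.0855), and only ATP8 passed (0.0377). When each library was left out in turn, COX2 passed in 26 of 26 fits (adjusted p from 0.00729 to 0.0486), ATP8 in 17 (0.0188 to 0.113) and CYTB in 11 (0.0198 to 0.0760). COX2 alone remained without the heat stress library of animal 12, 16, 18, 36 or 40 or the control library of animal 7, 32 or 36, and with animal 20 counted as a control 0 of 12652 genes passed by edgeR, 3804 of them and 5 members having an unadjusted p under 0.05.

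The other members did not pass in Takara. Of the 13 mRNAs 9 had a negative log2 fold change, with a median of -0.24 over the 13 and -0.05 over all genes tested. ND3 had -0.36 (adjusted p = 0.0917 by edgeR) and COX3 -0.24 (adjusted p = 0.118). ND1 and ND2 had -0.29 and -0.26. COX1 had -0.05, ATP6 0.02, ND4 0.00489, ND5 0.17, ND6 -0.15 and ND4L 0.41. With sense counts ND6 had -0.66 and COX1 -0.12 (adjusted p = 0.150 and 0.446 by edgeR). 12S had -0.17 and 16S -0.26 (adjusted p = 0.463 and 0.365), and KEH36_t12 had -0.53. KEH36_t22, counted almost only on the opposite strand, had -0.58. With sense counts KEH36_t12 had -1.10 (adjusted p = 0.200 by edgeR). With a library left out KEH36_t22 ranged from -0.70 to -0.32 and passed in 1 of 26 fits. The ranges were -0.65 to -0.32 for KEH36_t12, -0.32 to -0.17 for 16S and 0.13 to 0.54 for ND4L.

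In Lexogen 0 of 26 members passed edgeR's quasi-likelihood test, beside 5.55% of 11108 genes tested (5.09% up and 0.459% down). With DESeq2 0 passed, and 8 members had an unadjusted p under 0.05 in edgeR. Without the heat stress library of animal 23, 2 passed, ATP8 and KEH36_t22. All 13 mRNAs had negative log2 fold changes, from -0.13 for ND5 to -0.49 for ND4L, with a median of -0.26 against -0.08 over all genes tested. This shared sign held in run 1 alone but not in run 2, where 9 of the mRNAs were positive. Over both runs COX2 had -0.30, CYTB -0.37 and ATP8 -0.40. ND3 had 2127, 3421 and 5328 normalised CPM in the control libraries and 1706, 2631 and 3821 after heat stress, lower in 8 of 12 calves, with -0.43 and an adjusted p of 0.109 (edgeR). KEH36_t22, whose unstranded counts are nearly all reads of the opposite strand, had -0.59 (adjusted p = 0.101 by edgeR) and 0.93 with sense counts (adjusted p = 0.384). Of the 11 tRNA genes tested 9 had positive values, up to 1.49 for KEH36_t06, and none of the 11 was positive in run 2 alone. With the run as a term the value of KEH36_t06 was 0.85, that of KEH36_t08 went from 0.64 to 0.12, that of KEH36_t09 from 0.47 to 0.019 and that of KEH36_t13 from 0.60 to 0.040. The difference of the time effects between the kits was tested in 24 RNA samples, and it passed for 0 of 27 members and 0 of 13354 genes (0.0%) by edgeR, with 0 members and 526 genes at an unadjusted p under 0.05.

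**Figure D4:**
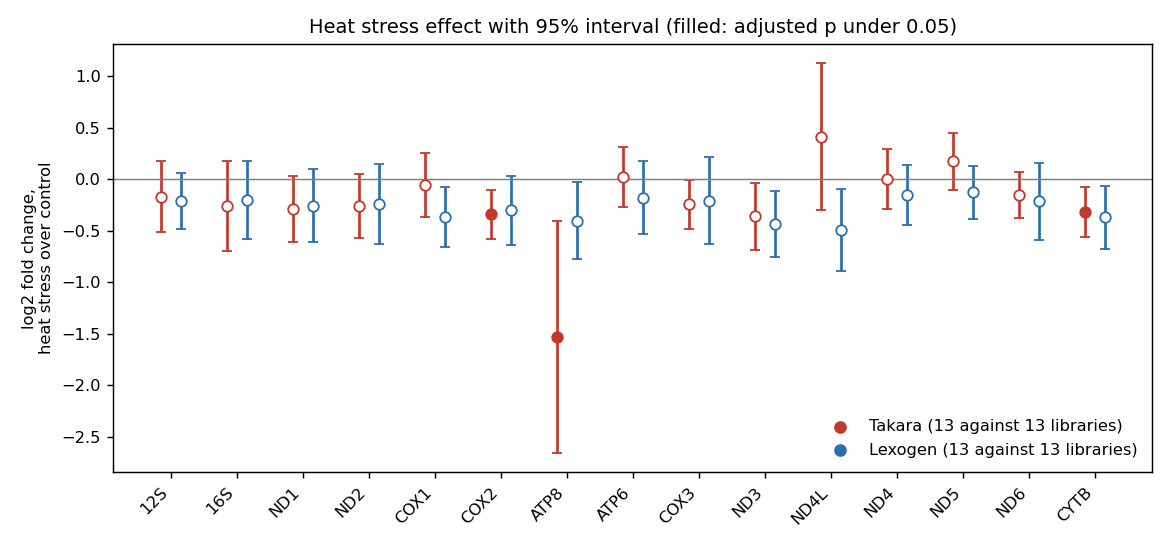
Log2 fold change, heat stress minus control, of the mitochondrial rRNAs and mRNAs in Takara and Lexogen (13 against 13 libraries each), with bars for the 95% confidence interval of the edgeR fit and filled points for an adjusted p under 0.05. COX2, CYTB and ATP8 in Takara are the filled points, and all 13 mRNAs are below 0 in Lexogen.

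The mitochondrial share of counts was lower after heat stress in most calves of both kits, by amounts that differed between the runs. In Takara all members together took 4.88% ± 1.10 of counts in the control libraries and 3.63% ± 0.917 after heat stress (SD, n = 13 each), lower in 10 of 12 calves. The mRNA share went from 1.78% ± 0.190 to 1.33% ± 0.378 and was lower in 11 of 12. In Lexogen all members took 21.1% ± 3.05 and 17.7% ± 5.06, lower in 9 of 12 calves, and mRNA took 2.85% and 2.28%, lower in 8 of 12. By run, the share of all members in Takara went from 4.01% to 3.73% in run 1 and from 5.90% to 3.52% in run 2, and the rRNA share was higher after heat stress in run 1, by 0.244 points. In Lexogen the mRNA share went from 3.21% to 1.92% in run 1 and was higher after heat stress in run 2 (2.43% and 2.85%). These shares depend on how the other genes moved, and with the total count as library size, which follows the shares, 8 members passed in Takara, among them ND1, ND2, ND3 and COX3, while 1303 of all 12620 genes rose, 2185 fell and their median was -0.27.

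Markers of neutrophils moved with the times. Of 8 neutrophil markers tested in Takara 7 rose and none fell, beside 18.4% of all genes up and 10.5% down. Their summed level, in CPM of the counts on genes outside the mitochondrial genome, was 6811 in the control libraries (2463 to 10557) and 17208 after heat stress (3545 to 30525). In Lexogen 4 of 7 rose, beside 5.09% of all genes, with sums of 3577 and 10472. Of 10 T cell markers 4 fell in Takara, of 8 B cell markers 1 fell, of 7 monocyte markers 3 rose, of 3 erythroid markers 1 rose, and of 7 platelet markers none passed by edgeR. The erythroid markers had a median log2 fold change of -0.32. Mean sums in Takara went from 1845 to 1233 for T cell, 909 to 623 for B cell and 1305 to 1215 for monocyte markers. They went from 1861 to 1260 for erythroid and 6411 to 4703 for platelet markers. In Lexogen none of the 10 T cell, 8 B cell, 7 monocyte, 2 erythroid and 7 platelet markers tested passed. The part of these cell types in the mitochondrial values was not tested.

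The effect of time on 3 members differed between the sample number runs, and for 16S it had opposite directions. Over the Takara libraries of both runs, the interaction of run and time passed for 3 of 17 members, beside 2.58% of 12620 genes tested. In run 1 16S had 8480, 9710 and 12930 normalised CPM in 7 control libraries and 10451, 16154 and 20140 in 7 heat stress libraries. It was higher after heat stress in 6 of 6 calves and rose by 0.65 (adjusted p = 0.0206, edgeR within run 1, where 20.6% of genes passed). In run 2 it had 18255, 26005 and 31000 in 6 control libraries and 10251, 11715 and 13495 in 6 heat stress libraries. These ranges did not overlap, 6 of 6 calves were lower, and 16S fell by 1.04 (adjusted p = 0.0341, edgeR within run 2, where 7.35% of genes passed). The difference of the effects, run 2 minus run 1, was -1.74 (SE 0.24, adjusted p = 0.000333 by edgeR), so the value of -0.26 over both runs describes neither run. The share of reads on no annotated feature moved with 16S. In run 1 it was 12.9% to 15.0% in the control libraries and 14.5% to 25.7% after heat stress, and in run 2 it was 13.9% to 19.2% and 12.1% to 15.6%. Unmapped reads reached 23.5% in the controls of run 2 and at most 17.2% in the other Takara groups. The part of these read classes in the values of the runs was not tested. Nor can the opposite directions of 16S be told apart from differences between the stretches of sample numbers.

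ND5 and ND3 had smaller differences of the same sign. ND5 had 130, 148 and 165 in control libraries and 138, 246 and 286 in heat stress libraries of run 1, where it rose by 0.63 (adjusted p = 0.00908, edgeR). In run 2 its value was -0.30 (adjusted p = 0.278), and the difference was -0.98 (SE 0.21, adjusted p = 0.0100). ND3 had 0.09 in run 1 (adjusted p = 0.715). In run 2 it had 574, 643 and 1022 in control libraries and 343, 406 and 489 in heat stress libraries, with no overlap, and it fell by 0.73 (adjusted p = 0.0390, edgeR) with a difference of -0.86 (SE 0.23, adjusted p = 0.0392). ATP8 had 0.29 in run 1 and -2.22 in run 2, a difference that did not pass (adjusted p = 0.0940 by edgeR), and its value over both runs has the sign of run 2.

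COX2 and CYTB kept their sign in both runs without passing in either. COX2 had -0.43 in run 1 (adjusted p = 0.0584, lower in 6 of 6 calves) and -0.24 in run 2 (adjusted p = 0.437) by edgeR. CYTB had -0.42 (adjusted p = 0.0816) and -0.19 (adjusted p = 0.576). With the run as a term in the model over both runs, COX2 (adjusted p = 0.0187) and CYTB (adjusted p = 0.0480) passed by edgeR in Takara. ATP8 did not, with -0.89 in place of -1.53 (adjusted p = 0.183).

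In Lexogen the interaction passed for 0 of 26 members by edgeR and for 2 of 11108 genes (0.018%), with 883 genes at an unadjusted p under 0.05. Within run 1 ND1, ND3 and CYTB fell, by 0.79, 0.78 and 0.71 (adjusted p = 0.0238, 0.0268 and 0.0425 by edgeR), beside 3.49% of genes, and each was lower in 7 of 7 calves. Within run 2 no gene passed (0.0%), and of these 3 members ND1 had 0.44, ND3 0.06 and CYTB 0.13. The tRNA genes were positive for 10 of 11 in run 1, with a median of 1.72, and for 0 of 11 in run 2, with a median of -1.64. KEH36_t03, for example, had a difference of -4.04 between the runs (adjusted p = 0.150 by edgeR).

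**Figure D5:**
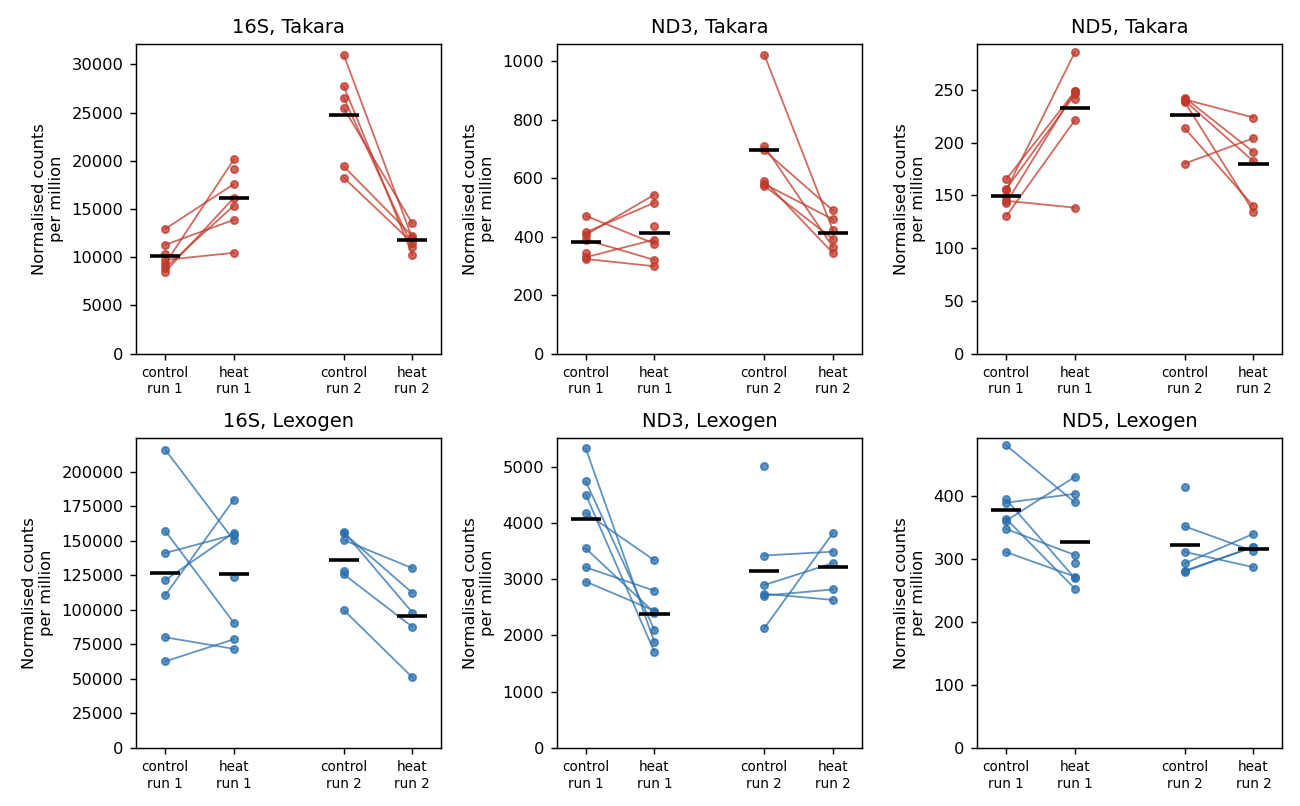
Normalised CPM of 16S, ND3 and ND5 by kit, sample number run and time, 1 point per library, with lines joining the libraries of a calf and bars at the means. 16S in Takara is higher after heat stress in 6 of 6 calves of run 1 and lower in 6 of 6 of run 2.

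Nuclear genes supply every protein that copies, transcribes, processes and degrades mitochondrial RNA. Of 62 genes on lists of such factors tested in Takara none rose and 9 fell at an adjusted p under 0.05 by edgeR, against the 18.4% and 10.5% of all genes given above. Among factors of transcription and replication 1 of 17 fell and none rose: MGME1, a nuclease that trims mitochondrial DNA ends, had -0.70 (adjusted p = 0.00170). Of 25 genes of RNA processing and modification 5 fell and none rose, with NSUN3, a methyltransferase of a mitochondrial tRNA, at -0.71 (adjusted p = 0.00592). Of 20 genes of RNA stability and decay 3 fell and none rose, led by TBRG4, a protein of the FASTK family, at -0.46 (adjusted p = 0.0152), with LRPPRC, which stabilises mitochondrial mRNAs, at -0.36 (adjusted p = 0.0200).

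Regulators of mitochondrial biogenesis were the list with rises. Of 12 tested 5 rose and 1 fell in Takara, which with the 3 lists above makes 5 up and 10 down of 74 genes. With the total count as library size it was 1 up and 19 down, while over all genes 2325 up and 1321 down became 1303 up and 2185 down. PRKAA1, a catalytic subunit of the energy sensor AMPK, rose by 1.26 (adjusted p = 0.00154 by edgeR). In Lexogen PRKAA1 was the 1 gene of 69 tested over these lists that passed (0.81, adjusted p = 0.0485 by edgeR), beside 5.55% of all genes tested. This call was lost with the animal as a block and changed when single libraries were left out. The median log2 fold changes were -0.14 for transcription and replication, -0.26 for processing, -0.14 for stability and 0.07 for biogenesis regulators in Takara, beside -0.05 over all genes tested. The Lexogen medians, in the same order, were -0.51, -0.31, -0.31 and -0.06, beside -0.08 over all genes tested.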

How the data were processed

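The deposited values are counts of reads per gene, not normalised. Per the study's methods, the authors trimmed the forward reads with Trimmomatic 0.39, checked them with FastQC 0.11.9 and MultiQC 1.14, aligned them with STAR 2.7.10b to the ARS-UCD2.0 genome and took its gene counts, which hold uniquely mapped reads in an unstranded, a sense and an opposite-strand column. Which column the authors analysed is not stated, and the unstranded column was used here. STAR leaves out reads that overlap more than 1 gene. Reads that map to many places, for example nuclear copies of mitochondrial genes, are also left out.

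Members were found by ID, and positions, lengths and gene types came from the RefSeq table of ARS-UCD2.0, without strand. The members, gene lists and tests were chosen with earlier results of these data known. The rRNA and mRNA members were described with values. The tRNA genes were described by counts and ranges, with the 3 of highest mean level in each kit named. From each list of nuclear genes the called genes with the largest positive and negative fold change in Takara were to be named. The 1 biogenesis regulator that fell was left unnamed. LRPPRC and the other tRNA genes named in the text were added after their values were seen.

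Times were compared within each kit and kits within RNA samples with edgeR 4.0.16 (filterByExpr, TMM, quasi-likelihood test, Benjamini-Hochberg over all genes tested, adjusted p under 0.05) in R 4.3.3. Strand shares were compared by permutation with 100000 resamples among genes with at least 10 stranded counts in every library. The tests were run first on simulated data. The same calves were sampled at both times, so animal numbers pair the libraries. The correlation of their deviations had a median of 0.236 in Takara (above 0.1 in 10 of 12 calves) and 0.00541 in Lexogen (3 of 12). As in the study, the animal was not in the main model. The p-values of the main fits of the times therefore measure the spread between libraries taken as independent. Yet 12 calves of each kit gave a library at both times.

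Alternatives were other library sizes (the total count on genes, and TMM from other genes than the members), all genes with a count, sense counts, DESeq2 1.42.0, the animal as a block, animal 20 at either time, each sample number run alone and each library left out. The run as a term, its interaction with time, and the alternatives for the shares by time and for the nuclear lists were added after seeing the data. No 2 libraries held identical counts (0 pairs).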

Additional observations from a re-analysis of the deposited data

Results flagged for a closer look

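3 results stood out because the effect of heat stress in Takara differed between the sample number runs by a test of the difference itself (the interaction term in edgeR, Benjamini-Hochberg over 12620 genes). The difference in log2 fold change, run 2 minus run 1, was -1.74 for 16S, with opposite directions that held in 6 of 6 calves of each run. It was -0.98 for ND5 and -0.86 for ND3. In Lexogen the same differences were -0.49 for 16S (adjusted p = 0.826), 0.18 for ND5 (adjusted p = 0.942) and 0.80 for ND3 (adjusted p = 0.408) by edgeR, and whether they differ from those in Takara was not tested.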

How the results depend on the processing

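The kit differences were the firmest results: 24 of 25 members kept their sign in each of the 11 alternatives that tested them, and COX1 turned to 0.28 with total counts, 0.19 with sense counts and 0.12 with DESeq2. None of the alternatives used the opposite-strand counts, in which KEH36_t12 and KEH36_t05 had the higher mean level in Takara. The difference in share, 14.9 points for all members, was 9.37 per filtered reads (8.65 for rRNA), and that of tRNA was 0.0247 with sense counts. The count of Takara members called by time, 3, became 8 with total counts, 1 with all genes (ATP8), 1 with the animal as a replicate block (COX2) and 0 with animal 20 as a control, and lay between 1 and 3 with a library left out. The block changed no call of a member other than ATP8 and CYTB. In Lexogen the count of 0 became 2 with all genes and 3 in run 1, and lay between 0 and 2 with a library left out. Nuclear factors called, 15 in Takara, were 0 with animal 20 as a control, 2 in run 2 and 11 to 21 with a library left out. In Lexogen the 1 became 0 with total counts, the block, animal 20 as a control or either run, and 2 with animal 20 as heat stress or DESeq2, and it moved for 22 of 26 libraries left out, between 0 and 2. Per filtered reads the shares by time in Takara changed by -0.597 points in place of -1.25 for all members and by -0.228 in place of -0.454 for mRNA. In Lexogen the change for all members was -2.07 in place of -3.41. Of counts on genes, shares by time in Takara changed by -2.38 points for all members and -1.99 for rRNA in run 2, and by 0.244 for rRNA in run 1. In Lexogen the mRNA share changed by -1.29 points in run 1 and 0.419 in run 2, and the tRNA share by 0.00522 with sense counts. Turned log2 fold changes in Takara were, in run 1, 12S 0.19, 16S 0.65, ND1 0.011, ATP8 0.29, ATP6 -0.089 and ND3 0.087. In run 2 they were ND4 -0.0950 and ND5 -0.30. With total counts they were ATP6 -0.22, ND4 -0.23 and ND5 -0.061, and with the block ATP6 -0.00424 and ND4 -0.043. ND4 was also -0.00701 with TMM from other genes, -0.00881 with all genes and -0.0147 with animal 20 as a control. With a library left out COX1 ranged from -0.15 to 0.026, ATP6 from -0.10 to 0.074 and ND4 from -0.11 to 0.060. In Lexogen they were 12S 0.020 and KEH36_t12 0.12 in run 1, and ND1 0.44, ND2 0.11, KEH36_t09 -1.37, COX2 0.083, ATP6 0.51, COX3 0.34, ND3 0.064, ND4 0.40, ND5 0.015 and CYTB 0.13 in run 2. The other 8 tRNA genes that were positive over both runs also turned in run 2, from -1.22 for KEH36_t02 to -2.03 for KEH36_t13. With the block KEH36_t08 was -0.061, KEH36_t09 -0.11, KEH36_t13 -0.33 and KEH36_t16 -0.31, and with sense counts KEH36_t13 was -0.40 and KEH36_t22 0.93. Kit differences in strand share turned in run 1 for 12S (0.000216 points) and ND2 (0.236), and in run 2 for ATP6 (-0.00338). The causes were not tested, and a run alone holds fewer samples. At these depths the standard errors of the time effects were larger in Lexogen, with a median of 0.42 over all genes beside 0.18 in Takara, and most tRNA genes had counts too low to be tested in Takara.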

Other observations

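Animal 20, which was left out of the main comparisons between the times, had the lowest mitochondrial mRNA share of the 27 Takara libraries, 0.663% of counts on genes. Its rRNA share was 1.84% and that of all members 2.51%. Its Lexogen library had 1.90% mRNA, 9.66% rRNA and 11.6% for all members, inside the range of the other Lexogen libraries.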
